A study of Danio rerio with 9 samples.

Results

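The 10 genes of the response to amino acid shortage, asns, chac1, trib3, ddit4, sesn2, psat1, phgdh, shmt2, slc7a11 and slc3a2a, were followed in RNA sequencing of pooled, whole Danio rerio (zebrafish) larvae aged 8 days post fertilization. They were chosen by name, as known targets of ATF4 and as brakes on mTORC1, but with earlier results of these data known. Their counts beside those of all genes are therefore a description. All 10 were among the 28802 rows of the deposited count table. Of these, 9 passed the filter on low counts, among 21694 genes tested, and chac1 had 0 counts in all 9 libraries. The larvae were of 3 genotypes with 3 libraries each. Double mutants were homozygotes for both fam177a1a stl700 and fam177a1b stl746. Single mutants were homozygotes for fam177a1a stl700 alone. Wild-type larvae are named AB, a standard laboratory line, in the column headers. Each library was made from 7 pooled larvae, so a value is an average over animals and tissues, and fewer cells of a type and less RNA per cell cannot be told apart in it. Neither the clutches of origin nor whether the wild type were siblings of the mutants is given in the labels, so p-values measure only the spread between these libraries.

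When an amino acid runs short, uncharged tRNA activates the kinase GCN2, which phosphorylates the initiation factor eIF2. Most translation then slows while the messenger RNA of the transcription factor ATF4 is translated better. In mammals ATF4 raises the enzymes that make asparagine and serine, amino acid transporters, and several genes that feed back on growth signalling. Cells also lower the activity of mTORC1, the kinase complex that couples amino acid supply to protein synthesis. The genes followed here cover these outputs: ddit4, sesn2 and trib3 act on growth signalling, asns, phgdh, psat1 and shmt2 make or convert amino acids, slc3a2a and slc7a11 encode subunits of amino acid transporters, and chac1 encodes an enzyme that degrades glutathione.

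The libraries held 17.0 to 19.3 M counts in double mutants, 17.2 to 18.3 M in single mutants and 18.3 to 24.7 M in wild type, and 3 counts in 1 library amounted to 0.121 to 0.178 CPM, the counts-per-million unit used throughout. The row fam177a1, the row of the targeted gene by its symbol, averaged 0.603 ± 0.252 CPM in double mutants, 0.638 ± 0.186 CPM in single mutants and 25.1 ± 2.45 CPM in wild type (SD, n = 3 each). Single-mutant replicate 1 stood apart from the other single mutants. Over all tested genes its mean distance was 0.47 log2 units to the double mutants and 0.51 to the other single mutants, whereas single-mutant replicates 2 and 3 were 0.57 and 0.58 from the double mutants and 0.46 and 0.47 from the other libraries of their own genotype. All 37 markers of the 9 cell types checked had counts in every library. The summed CPM of the 4 enterocyte markers was 2324 to 2377 in double mutants, 2270 to 2321 in single mutants and 2973 to 3123 in wild type, and each of them was called lower in both mutants. The 4 epidermis markers summed to 5298 to 6972 CPM in double mutants, 4220 to 5738 CPM in single mutants and 7677 to 8121 CPM in wild type. Among them 2 were called lower in double mutants and 3 in single mutants. The 4 hepatocyte markers summed to 3629 to 3814 CPM in double mutants, 2906 to 3684 CPM in single mutants and 2627 to 2915 CPM in wild type. Of these, 3 were called higher and 1 lower in double mutants, and 2 higher in single mutants. The 4 erythrocyte markers summed to 1427 to 1532 CPM in double mutants, 1058 to 1349 CPM in single mutants and 535 to 915 CPM in wild type, although 3 of the 4 were called lower in each mutant. The 4 neutrophil and macrophage markers summed to 27.6 to 34.8 CPM in double mutants, 27.2 to 40.5 CPM in single mutants and 40.9 to 47.0 CPM in wild type, with 2 called lower in double mutants and 1 in single mutants. The 4 neuron markers summed to 551 to 588 CPM in double mutants, 536 to 619 CPM in single mutants and 501 to 533 CPM in wild type, with none called in double mutants and 3 called higher in single mutants. The sums of the 4 skeletal muscle markers, 33000 to 34949 CPM in double mutants, 32695 to 36098 CPM in single mutants and 30145 to 33650 CPM in wild type, overlapped. Among these markers 2 were called higher in single mutants and none was called in double mutants. The sums of the 4 lens and of the 5 exocrine pancreas markers also overlapped between genotypes. For lens 1 was called higher in each mutant, and for exocrine pancreas 1 higher and 1 lower in single mutants only. Beside these calls stand 32.2% of all tested genes called in double mutants and 42.0% in single mutants. The part of the marker differences in the results that follow was not tested.

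Compared per length in wild type, the genes spanned a wide range of TPM (the transcripts-per-million unit, computed from the deposited counts and lengths). The mitochondrial serine hydroxymethyltransferase shmt2 was highest of the 10 at 111 ± 11.6 TPM, a level above that of 95.2% of tested genes. It was followed by slc3a2a at 85.0 ± 1.27 TPM and phgdh at 59.8 ± 6.07 TPM, and the wild-type libraries of these 3 genes did not overlap. The next 3 overlapped in their library values: ddit4 at 40.4 ± 8.16 TPM, psat1 at 32.8 ± 4.46 TPM and trib3 at 31.0 ± 4.28 TPM. The last were asns at 21.9 ± 2.71 TPM, sesn2 at 7.66 ± 0.972 TPM, slc7a11 at 1.96 ± 0.252 TPM and chac1, which had no count. Whether the 0 of chac1 reflects expression, the annotation or the counting was not tested. In the mutants ddit4 took another place in this order. It reached 92.8 ± 1.96 TPM in double mutants, second to shmt2 with 99.5 ± 1.85 TPM there, and 223 ± 123 TPM in single mutants, where 2 of the 3 libraries lay above every value of shmt2.

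The 3 genes that act on growth signalling were higher in all 6 mutant libraries than in any wild-type library, and the 3 passed the test in single mutants. None of the enzyme and transporter genes among the members was called higher in either mutant. The gene phgdh was lower in both, slc3a2a was lower in double mutants, and asns, psat1, shmt2 and slc7a11 were not called in either. In single mutants 3 of the 9 tested members were called higher than wild type and 1 lower, with an adjusted p under 0.05 in edgeR's quasi-likelihood test. That stands beside 42.0% of all tested genes called in the same comparison, 19.5% higher and 22.6% lower. In double mutants none was called higher and 2 were called lower, beside 32.2% of all tested genes called, 14.2% higher and 18.0% lower. The unadjusted p was under 0.05 for 5 of the 9 members in each of these comparisons, beside 42.6% of all tested genes in double mutants and 49.7% in single mutants. The share of members called was thus near that of all tested genes in single mutants. In double mutants it was lower, but this rested on 9 members and did not hold in every setting. With only the 6 double-mutant and wild-type libraries, 3 members were called higher and 2 lower. Over all genes that setting gave 4055 higher and 4639 lower. The libraries did not overlap in 3 members that were higher and 3 that were lower, in each mutant. Over all tested genes these shares were 22.8% and 27.3% in double mutants and 22.6% and 26.5% in single mutants. Their median log2 fold change was −0.07 in double mutants and −0.06 in single mutants, against −0.01 over all tested genes in each. Both mutants were compared with the same 3 wild-type libraries.

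**Figure D1:**
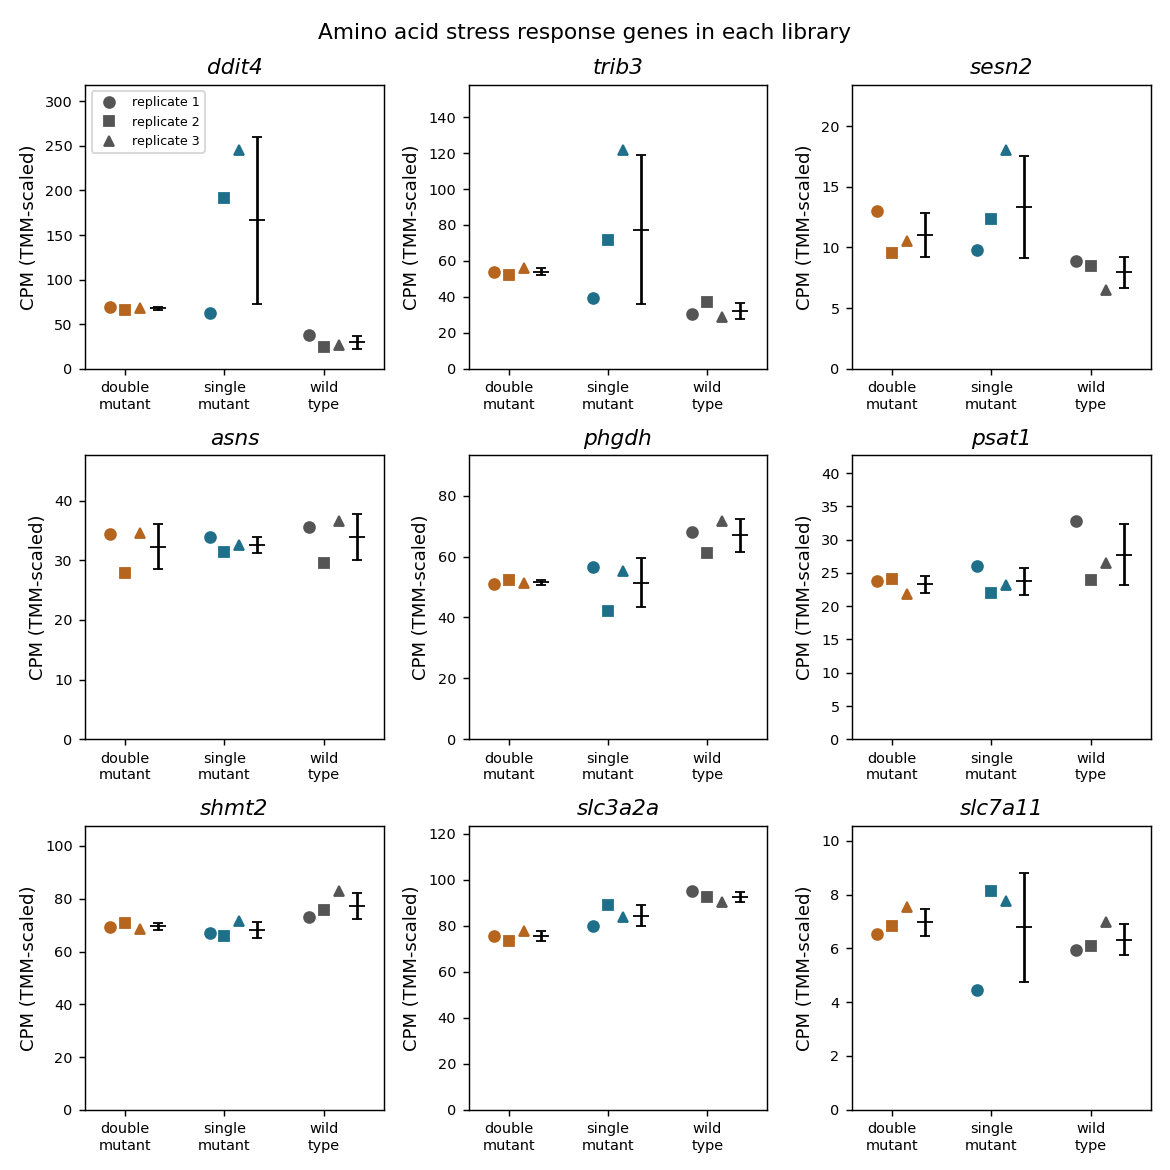
CPM on TMM-scaled totals of the 9 tested genes in each library, by genotype, with the marker shape giving the replicate number and the bar the mean ± SD of 3 libraries. For ddit4, trib3 and sesn2 all mutant libraries lie above wild type and single-mutant replicate 1 lies below replicates 2 and 3, while phgdh, shmt2 and slc3a2a lie below wild type in both mutants.

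The gene ddit4 encodes REDD1, which restrains mTORC1 through the TSC complex and is induced by ATF4, by glucocorticoids and by low oxygen. It had 68.9, 66.2 and 68.7 CPM in double-mutant replicates 1 to 3, 62.7, 192 and 245 CPM in single-mutant replicates 1 to 3, and 37.7, 24.4 and 27.1 CPM in the wild-type libraries. The 3 double mutants were nearly equal, whereas the single mutants split into 1 library at the level of the double mutants and 2 far above it. Against wild type the log2 fold change in double mutants was 1.19 (SE 0.49, adjusted p = 0.117), with a 95% interval from 0.00 to 2.38. In single mutants it was 2.48 (SE 0.50, adjusted p = 0.00852), or 5.59-fold, and this call held in all 19 alternatives run. With single-mutant replicate 1 as the only single mutant, a setting added after the data were seen, the log2 fold change of ddit4 against wild type was 1.11. Without that replicate it was 2.87 (adjusted p = 2.02e-05).

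The spread of ddit4 among single mutants entered the shared estimate behind the test of the double mutants. With only the 6 double-mutant and wild-type libraries, the log2 fold change of ddit4 in double mutants was 1.20 (adjusted p = 0.000272). It also passed without single-mutant replicate 1 (adjusted p = 0.00181), with DESeq2 (adjusted p = 0.0354) and with limma-voom (adjusted p = 0.0443). Between the mutants the log2 fold change, double over single, was −1.29 (SE 0.48, adjusted p = 0.238, 95% interval −2.45 to −0.13). Without single-mutant replicate 1 that difference was −1.68 (adjusted p = 0.00105), and against that replicate alone it was 0.10.

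The pseudokinase gene trib3 encodes an inhibitor of AKT that also damps ATF4 activity, and in mammals it is a sensitive target of ATF4 and DDIT3. It had 53.8, 52.2 and 56.3 CPM in double mutants, 39.1, 71.5 and 121 CPM in single-mutant replicates 1 to 3, and 30.4, 36.9 and 28.6 CPM in wild type. No mutant library overlapped with wild type, and the single mutants had the same order of libraries as for ddit4. Its log2 fold change was 0.76 in double mutants (SE 0.39, adjusted p = 0.19) and 1.28 in single mutants (SE 0.39, adjusted p = 0.0388). The call in single mutants was narrow. It was lost with only the 6 single-mutant and wild-type libraries (adjusted p = 0.0926), without any 1 of the double mutants (adjusted p 0.058 to 0.0587), without single-mutant replicate 2 (adjusted p = 0.0748), and on leaving out wild-type replicate 1 (adjusted p = 0.1), 2 (adjusted p = 0.073) or 3 (adjusted p = 0.107). With the 6 libraries of double mutants and wild type alone, trib3 was called higher in double mutants (adjusted p = 6.02e-07), and it was also called there without single-mutant replicate 1 (adjusted p = 0.0375) or 3 (adjusted p = 0.0271).

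Sestrin 2, the product of sesn2, binds the GATOR2 complex and restrains mTORC1 when leucine is low in mammals. The gene had 13.0, 9.51 and 10.6 CPM in double mutants, 9.79, 12.3 and 18.0 CPM in single-mutant replicates 1 to 3, and 8.91, 8.47 and 6.52 CPM in wild type. All mutant libraries lay above wild type, by a smaller margin than for ddit4. Its log2 fold change was 0.47 in double mutants (SE 0.21, adjusted p = 0.116) and 0.75 in single mutants (SE 0.21, adjusted p = 0.0135). The call of sesn2 in single mutants ended on leaving out wild-type replicate 3 (adjusted p = 0.0553). With single-mutant replicate 1 alone the log2 fold change was 0.33. In double mutants sesn2 was called with the 6 libraries compared (adjusted p = 0.0112), and without single-mutant replicate 1 (adjusted p = 0.0345) or 3 (adjusted p = 0.0272).

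Asparagine synthetase, encoded by asns, is among the most used reporters of ATF4 activity in mammals. It had 34.4, 27.9 and 34.6 CPM in double mutants, 33.9, 31.3 and 32.5 CPM in single mutants, and 35.6, 29.5 and 36.6 CPM in wild type. The genotypes overlapped throughout. For asns the log2 fold change was −0.07 in double mutants (95% interval −0.29 to 0.15, adjusted p = 0.646) and −0.06 in single mutants (95% interval −0.28 to 0.16, adjusted p = 0.684). In the single mutants with the highest ddit4 and trib3, replicates 2 and 3, asns was within the range of the wild-type libraries.

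The enzymes of serine synthesis and use were lower in the mutants or did not pass the test. The first enzyme of the serine pathway, phgdh, had 51.0, 52.3 and 51.2 CPM in double mutants, 56.7, 42.1 and 55.3 CPM in single mutants, and 68.2, 61.0 and 71.7 CPM in wild type. It was below every wild-type library in all 6 mutant libraries. Measured as log2 fold change, phgdh had −0.38 in double mutants (SE 0.10, adjusted p = 0.0104) and −0.38 in single mutants (SE 0.10, adjusted p = 0.00748). The call in double mutants was lost on leaving out double-mutant replicate 1 (adjusted p = 0.0534) or 3 (adjusted p = 0.0542), or wild-type replicate 1 (adjusted p = 0.0506) or 3 (adjusted p = 0.0517). That in single mutants was lost without single-mutant replicate 2 (adjusted p = 0.0638). With single-mutant replicate 1 alone the log2 fold change was −0.20.

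The next enzyme of that pathway, the aminotransferase psat1, averaged 23.3 ± 1.27 CPM in double mutants, 23.7 ± 2.05 CPM in single mutants and 27.7 ± 4.60 CPM in wild type. These libraries overlapped. Its log2 fold change was −0.26 in double mutants (adjusted p = 0.102) and −0.23 in single mutants (adjusted p = 0.129). It passed in double mutants without wild-type replicate 2 (adjusted p = 0.0441) and in single mutants without single-mutant replicate 1 (adjusted p = 0.0407). For shmt2, which turns serine into glycine in mitochondria, the values were 69.3, 70.9 and 68.4 CPM in double mutants, 67.0, 66.0 and 71.7 CPM in single mutants, and 73.1, 75.7 and 82.8 CPM in wild type. The wild-type libraries lay above all mutant libraries by a narrow margin. As log2 fold change, shmt2 had −0.15 in double mutants (adjusted p = 0.137) and −0.18 in single mutants (adjusted p = 0.0683). The value in single mutants passed when libraries were scaled by their totals alone (adjusted p = 0.024).

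Neither transporter subunit gene among the members was called higher in either mutant. One of the zebrafish genes for the heavy chain CD98, which carries several amino acid exchangers to the cell surface, is slc3a2a. It had 75.4, 73.4 and 77.5 CPM in double mutants, 79.9, 89.1 and 84.0 CPM in single mutants, and 94.9, 92.4 and 90.2 CPM in wild type. The 3 genotypes did not overlap, with the double mutants lowest. Against wild type slc3a2a had a log2 fold change of −0.29 in double mutants (SE 0.07, adjusted p = 0.00514), which held in all 19 alternatives run, and −0.13 in single mutants (SE 0.07, adjusted p = 0.144), which passed only with scaling by library totals (adjusted p = 0.0428). Double over single it was −0.16 (SE 0.07, adjusted p = 0.252), although all 3 double mutants were below all 3 single mutants. For slc7a11, the cystine and glutamate exchanger, values were 6.53, 6.84 and 7.53 CPM in double mutants, 4.46, 8.11 and 7.77 CPM in single mutants, and 5.93, 6.08 and 6.98 CPM in wild type. Its log2 fold change was 0.14 in double mutants (95% interval −0.26 to 0.54) and 0.10 in single mutants (95% interval −0.30 to 0.50), and single-mutant replicate 1 was the lowest of the 9 libraries.

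**Figure D2:**
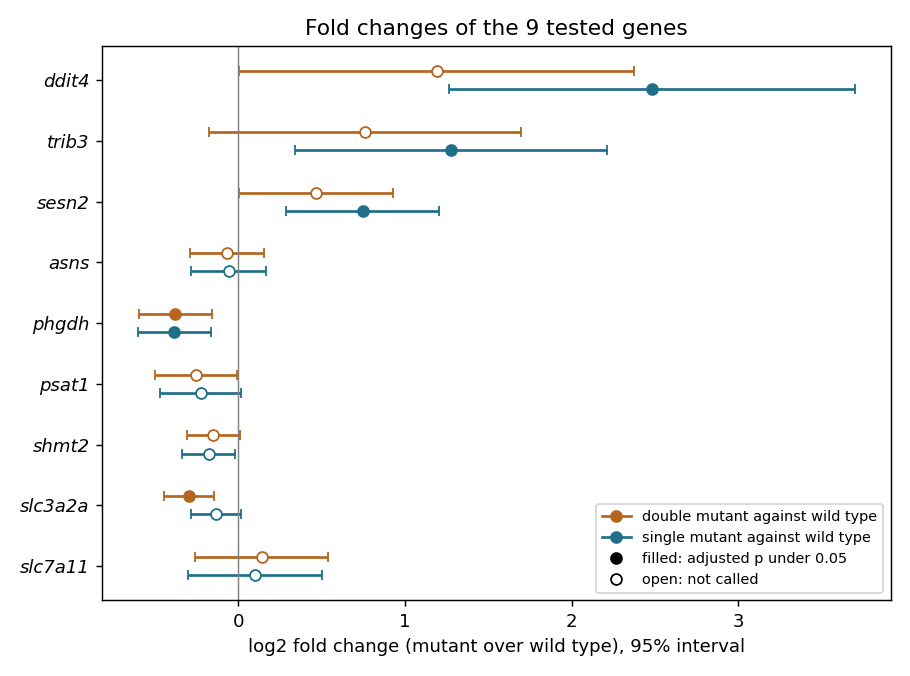
Log2 fold change of each tested gene against wild type with its 95% interval, for double mutants and single mutants, from 1 fit over the 9 libraries. The intervals of ddit4, trib3 and sesn2 are wide, those of asns and shmt2 are narrow, and filled markers mark adjusted p under 0.05.

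Between the mutants none of the 9 members was called, beside 1.67% of all tested genes called and 0.668% called higher, and 2 had an unadjusted p under 0.05, ddit4 and slc3a2a, beside 17.9% of all tested genes. The libraries of the mutants overlapped in 8 of 9 members, and slc3a2a was lower without overlap. Over all tested genes 10.7% were higher and 9.50% lower without overlap. Within a genotype, the pooled SD of log2 CPM was 0.63 for ddit4, larger than that of 95.8% of tested genes, 0.49 for trib3 and 0.32 for sesn2, against a median of 0.17 over all tested genes. It was 0.07 for shmt2 and 0.06 for slc3a2a. The spread of ddit4 and trib3 lay mostly in the single mutants, with an SD of 1.05 and 0.82 log2 units there. Their SD was 0.03 and 0.05 in double mutants and 0.33 and 0.19 in wild type.

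**Figure D3:**
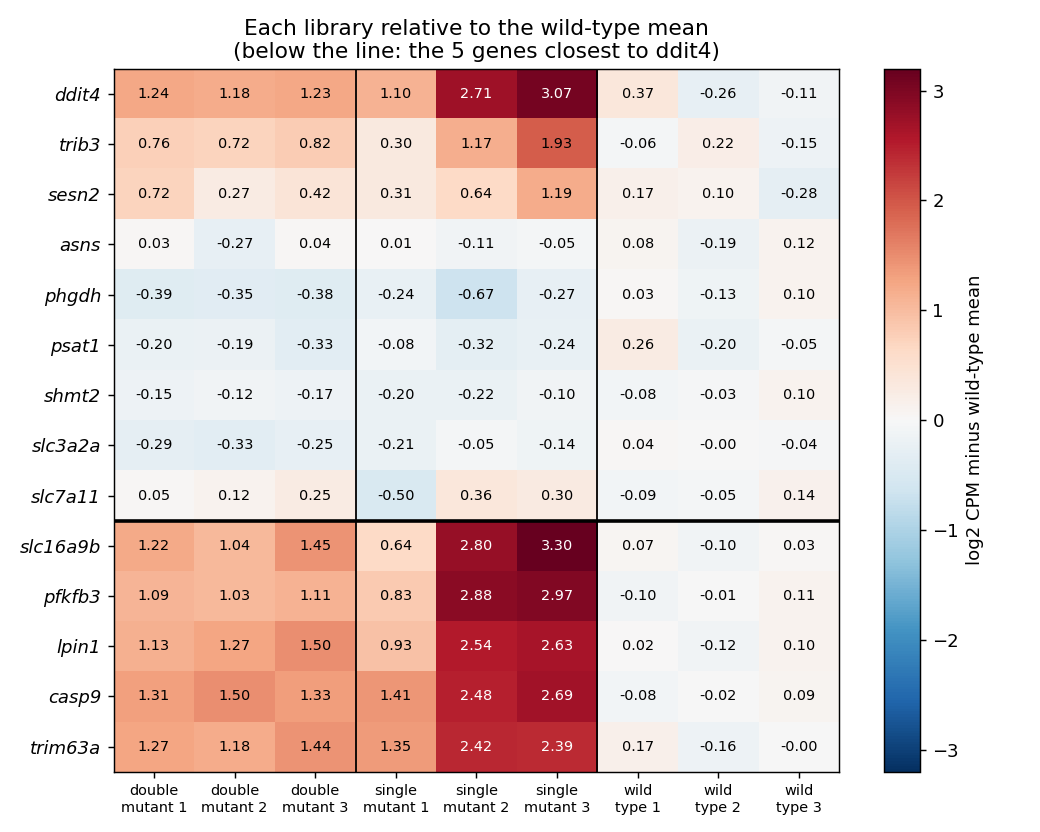
Log2 CPM of each tested gene in each library relative to its wild-type mean. Columns are libraries, and the rows under the line are the 5 genes closest to ddit4 among those with a conventional gene symbol. The strongest values among the members are those of ddit4 in single-mutant replicates 2 and 3 and of trib3 in replicate 3.

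Genes with a pattern like that of ddit4 were sought by the root mean square difference of log2 CPM, centred on the wild-type mean, over the 9 libraries. Rows without a conventional gene symbol, such as clone or locus names, were left out of this search. The 5 nearest were slc16a9b (0.23), pfkfb3 (0.24), lpin1 (0.24), casp9 (0.28) and trim63a (0.28), against a median of 1.61 over all tested genes. The monocarboxylate carrier family member slc16a9b had 20.1 to 26.7 CPM in double mutants, 15.3, 68.0 and 96.6 CPM in single-mutant replicates 1 to 3, and 9.11 to 10.2 CPM in wild type. The regulator of glycolysis pfkfb3 had 47.1 to 49.7 CPM in double mutants, 40.9, 170 and 181 CPM in single mutants, and 21.4 to 24.8 CPM in wild type. Lipin 1, a phosphatidate phosphatase, had 95.5 to 123 CPM (lpin1) in double mutants, 83.0, 254 and 269 CPM in single mutants and 40.1 to 46.7 CPM in wild type. In each of these 3 genes, as in ddit4, single-mutant replicate 1 was below the other single mutants, and it was also below all 3 double mutants. All 3 were called higher in single mutants (adjusted p 0.00803 to 0.0184), and none was called in double mutants, where slc16a9b had a log2 fold change of 1.24 (adjusted p = 0.196), pfkfb3 of 1.08 (adjusted p = 0.177) and lpin1 of 1.31 (adjusted p = 0.0636). With only the 6 libraries of double mutants and wild type each of the 3 was called, and the call of slc16a9b in single mutants was lost in 5 of 19 alternatives (adjusted p 0.05 to 0.0615). The muscle ubiquitin ligase trim63a had a log2 fold change of 1.29 in double mutants (adjusted p = 0.0132) and 2.12 in single mutants (adjusted p = 0.00109), and casp9, an initiator caspase, had 1.39 (adjusted p = 0.0067) and 2.30 (adjusted p = 0.000224) in the same order. These genes were selected for their likeness, so their shared pattern is a description.

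Upstream of the members stand the transcription factors of the ATF4 family and their partners, most of which were called higher. Of 16 tested, 11 were called higher and none lower in double mutants, with a median log2 fold change of 0.63, and 11 higher and 1 lower in single mutants, with a median of 0.94. Over all tested genes 14.2% were called higher and 18.0% lower in double mutants, and 19.5% and 22.6% in single mutants. The counts of every list below stand beside these shares. Without single-mutant replicate 1, all genes called higher and lower rose from 3084 and 3906 to 3861 and 4836 in double mutants. In single mutants they rose from 4222 and 4894 to 4949 and 5414. The row atf4a averaged 194 ± 2.20 CPM in double mutants, 204 ± 8.86 CPM in single mutants and 159 ± 4.02 CPM in wild type, with a log2 fold change of 0.29 in double mutants (adjusted p = 0.00273) and 0.36 in single mutants (adjusted p = 0.000378). The other zebrafish copy, atf4b, had 0.38 in double mutants (adjusted p = 0.0018) and 0.45 in single mutants (adjusted p = 0.000362). Both were named after their values were seen. ATF4 is controlled mainly through its translation, which these counts do not measure. The proapoptotic factor ddit3 (CHOP) rose by 0.59 in double mutants (adjusted p = 0.000174) and 0.74 in single mutants (adjusted p = 1.71e-05). The stress cofactor nupr1b averaged 86.2 ± 4.49 CPM in double mutants, 102 ± 20.6 CPM in single mutants and 17.7 ± 2.40 CPM in wild type, a log2 fold change of 2.28 (adjusted p = 5.07e-07) and 2.53 (adjusted p = 1.74e-07). Its copy nupr1a was higher by 0.79 in double mutants (adjusted p = 6.88e-05) and 1.39 in single mutants (adjusted p = 2.27e-07), and cebpd, a C/EBP partner factor, by 1.33 in double mutants (adjusted p = 0.000167). The single-mutant replicate 1 that was low for ddit4 was not low for nupr1b, where it was the highest of the 9 libraries at 2.80 log2 units above the wild-type mean.

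The kinases, eIF2 subunits and phosphatases that set the pathway were mixed. Of 14 tested, 3 were called higher and 4 lower in double mutants, and 4 higher and 5 lower in single mutants, and under RLE or upper-quartile scaling the double mutants had 3 higher and 1 lower. With single-mutant replicate 1 alone the list median in single mutants was −0.02, against −0.14 with all libraries. The GCN2 activator gcn1 was higher by 0.54 in double mutants (adjusted p = 1.52e-05) and 0.62 in single mutants (adjusted p = 2.9e-06). The regulatory subunit ppp1r15a, which directs dephosphorylation of eIF2 and is itself an ATF4 pathway target, was higher by 1.34 in double mutants (adjusted p = 0.00448) and 1.85 in single mutants (adjusted p = 0.000624). The eIF2 alpha subunit gene eif2s1a had −0.37 in double mutants (adjusted p = 0.00553) and −0.55 in single mutants (adjusted p = 0.00021), and the first of these was lost without double-mutant replicate 1 (adjusted p = 0.0514). The exchange factor subunit eif2b3 had −0.22 in double mutants (adjusted p = 0.117) and −0.48 in single mutants (adjusted p = 0.00226). With single-mutant replicate 1 alone eif2b3 had −0.34. The ER stress kinase gene eif2ak3 had 0.40 in double mutants (adjusted p = 0.0116) and 0.16 in single mutants (adjusted p = 0.282). In single mutants eif2ak3 had −0.01 without single-mutant replicate 1 (adjusted p = 0.933) and 0.48 with that replicate alone. GCN2 itself had no row under the symbol eif2ak4 in the count table.

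Among 25 further ATF4 targets, 8 were called higher and 3 lower in double mutants, and 11 higher and 4 lower in single mutants, with median log2 fold changes of 0.09 and 0.20. Without single-mutant replicate 1 these were 10 higher and 5 lower in double mutants and 13 higher and 4 lower in single mutants, with medians of 0.09 and 0.31. With scaling by library totals they were 8 higher and 5 lower in double mutants and 11 higher and 6 lower in single mutants. Those with the smallest adjusted p did not share a direction. Besides nupr1b and ddit3, which rose and stand in both lists, the mitochondrial folate enzyme mthfd2 fell to 40.9 CPM in double mutants and 34.9 CPM in single mutants, against 56.7 CPM in wild type, and pck2, mitochondrial PEP carboxykinase, had −0.39 in double mutants (adjusted p = 0.000855) and −0.50 in single mutants (adjusted p = 7.23e-05). For mthfd2 the log2 fold change was −0.47 (adjusted p = 0.00154) and −0.70 (adjusted p = 4.38e-05). As examples, picked from more than 1 list, mthfd2, pck2 and phgdh were called lower, and ddit3, nupr1b and ppp1r15a higher, in both mutants. The members asns, psat1 and slc7a11 were called in neither. In the list of 25, more genes were called higher than lower in each mutant.

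The wider set of 34 enzymes of serine, glycine, asparagine, proline and folate metabolism had 3 called higher and 14 lower in double mutants and 5 higher and 14 lower in single mutants, with medians of −0.21 and −0.18. Without single-mutant replicate 1 these were 7 higher and 18 lower in double mutants and 9 higher and 14 lower in single mutants. The glycine cleavage enzyme amt had −0.73 in double mutants (adjusted p = 2.83e-05) and −0.90 in single mutants (adjusted p = 2.9e-06). The cytosolic folate enzyme mthfd1a averaged 4.78 CPM in double mutants, 8.36 CPM in single mutants and 13.6 CPM in wild type. It was also lower in double than in single mutants, with −0.81 (adjusted p = 0.00738). In double mutants against wild type its log2 fold change was −1.50 (adjusted p = 1.16e-06), and that of the proline synthesis enzyme pycr1b was −0.62 (adjusted p = 3.9e-05). In single mutants pycr1b was also called lower in all 19 alternatives (−0.50 to −0.38). An exception was cthl, a cystathionine gamma-lyase-like gene, which averaged 19.0 CPM in double mutants, 15.5 CPM in single mutants and 5.85 CPM in wild type, a log2 fold change of 1.69 (adjusted p = 1.23e-05) and 1.40 (adjusted p = 4.44e-05). The last serine enzyme, psph, named after its values were seen, had −0.12 in double mutants (adjusted p = 0.233) and −0.18 in single mutants (adjusted p = 0.0539).

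Of 28 further amino acid transporter genes, 8 were called higher and 3 lower in double mutants, and 13 higher and 2 lower in single mutants. With the 6 libraries of double mutants and wild type alone these were 13 higher and 4 lower, and without single-mutant replicate 1, 19 were called higher in single mutants. Over all genes the 6 libraries gave 4055 higher and 4639 lower, against 3084 and 3906 with all libraries. The paralogue slc3a2b, named after its values were seen, moved opposite to slc3a2a. It had 190, 182 and 229 CPM in double mutants, 169, 294 and 358 CPM in single-mutant replicates 1 to 3, and 92.1, 92.3 and 88.7 CPM in wild type. No library of slc3a2b in either mutant overlapped with wild type, and single-mutant replicate 1 was again below the other mutants. Against wild type slc3a2b had a log2 fold change of 1.14 in double mutants (adjusted p = 0.0165) and 1.59 in single mutants (adjusted p = 0.0032), and the first ended on leaving out wild-type replicate 1 (adjusted p = 0.0526), 2 (adjusted p = 0.0507) or 3 (adjusted p = 0.0564). How reads shared by slc3a2a and slc3a2b were counted is not given in the sources used here. The light chain gene slc7a5 (LAT1), also named after its values were seen, had −0.01 in double mutants (adjusted p = 0.968) and 0.19 in single mutants (adjusted p = 0.148). Without single-mutant replicate 1, slc7a5 was called higher in single mutants (0.31, adjusted p = 0.00388) and lower in double than in single mutants (−0.32, adjusted p = 0.0104). Another transporter gene named after its values were seen, slc38a2, was called higher in each mutant in all 19 alternatives. Its log2 fold change ranged from 0.30 to 0.41 in double mutants and from 0.29 to 0.43 in single mutants.

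Other transporters were higher, and some lower. The neutral amino acid transporter slc38a5b had 0.42 in double mutants (adjusted p = 0.00183) and 0.53 in single mutants (adjusted p = 0.000231), and slc43a2b had 0.36 (adjusted p = 0.0105) and 0.70 (adjusted p = 6.42e-05). The cationic amino acid transporter slc7a3b had 1.12 in double mutants (adjusted p = 2.67e-05) and 0.73 in single mutants (adjusted p = 0.000596). The lysosomal arginine sensor slc38a9 had 0.78 in double mutants (adjusted p = 0.000427) and 0.41 in single mutants (adjusted p = 0.0228). The second slc38a9 call was lost on leaving out single-mutant replicate 2 (adjusted p = 0.0503) or wild-type replicate 3 (adjusted p = 0.0693). With single-mutant replicate 1 alone slc38a9 had 0.45. The light chain slc7a7 was lower, with −0.84 in double mutants (adjusted p = 2.79e-05) and −0.63 in single mutants (adjusted p = 0.000211). The heavy chain slc3a1, part of a mammalian kidney and intestine transporter of cystine and basic amino acids, was lower in single mutants, with −0.63 (adjusted p = 0.00044), and had 0.01 in double mutants (adjusted p = 0.945).

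The paralogues of the members also went in several directions: of 9 tested, 3 were called higher and 3 lower in double mutants, and 4 higher and 4 lower in single mutants. Sestrin 1, sesn1, averaged 107 ± 9.95 CPM in double mutants, 167 ± 51.4 CPM in single mutants and 43.1 ± 1.90 CPM in wild type, a log2 fold change of 1.31 (adjusted p = 0.0039) and 1.95 (adjusted p = 0.000406). In mammals sesn1 is a target of FoxO factors and p53. The paralogue of chac1, chac2, also a glutathione-degrading enzyme, averaged 2.64 CPM in double mutants, 2.57 CPM in single mutants and 5.72 CPM in wild type, a log2 fold change of −1.11 (adjusted p = 0.000336) and −1.15 (adjusted p = 0.000171). The asparagine synthetase domain gene asnsd1 had −0.63 in double mutants (adjusted p = 0.000221) and −0.95 in single mutants (adjusted p = 4.79e-06). Cytosolic shmt1 had −0.46 (adjusted p = 0.000671) and −0.44 (adjusted p = 0.000563). Of the tribbles genes named after their values were seen, trib1 had 0.99 in double mutants (adjusted p = 0.0107) and 1.12 in single mutants (adjusted p = 0.00455), and trib2 had −0.19 (adjusted p = 0.132) and −0.29 (adjusted p = 0.0208). The last of these calls was lost on leaving out any 1 double mutant, single-mutant replicate 2, or wild-type replicate 2 or 3 (trib2 adjusted p 0.0539 to 0.0859).

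In the mTORC1 complex and amino acid sensing list, 13 of 46 tested genes were called higher and 8 lower in double mutants, and 17 higher and 10 lower in single mutants, with medians of 0.08 and 0.04. The second of these medians was −0.02 with scaling by library totals. The kinase gene mtor, named after its values were seen, had 0.03 in double mutants (adjusted p = 0.848) and 0.15 in single mutants (adjusted p = 0.279). Those with the smallest adjusted p were higher. The folliculin gene flcn had 0.94 in double mutants (adjusted p = 4.42e-05) and 1.24 in single mutants (adjusted p = 2.3e-06), castor2, a relative of the arginine sensor CASTOR1, had 0.95 (adjusted p = 2.54e-05) and 1.18 (adjusted p = 2.35e-06), and the translation repressor eif4ebp3 averaged 32.5 CPM in double mutants, 38.3 CPM in single mutants and 12.6 CPM in wild type. Its log2 fold change was 1.37 in double mutants (adjusted p = 3.13e-05) and 1.61 in single mutants (adjusted p = 6e-06). Of the autophagy kinase genes, ulk1b had 0.69 in double mutants (adjusted p = 3.46e-05) and ulk1a had 1.84 in single mutants (adjusted p = 7.03e-06). Each was also called higher in the other mutant in all 19 alternatives. There ulk1b had 0.71 to 0.85 in single mutants and ulk1a had 1.13 to 1.35 in double mutants.

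**Figure D4:**
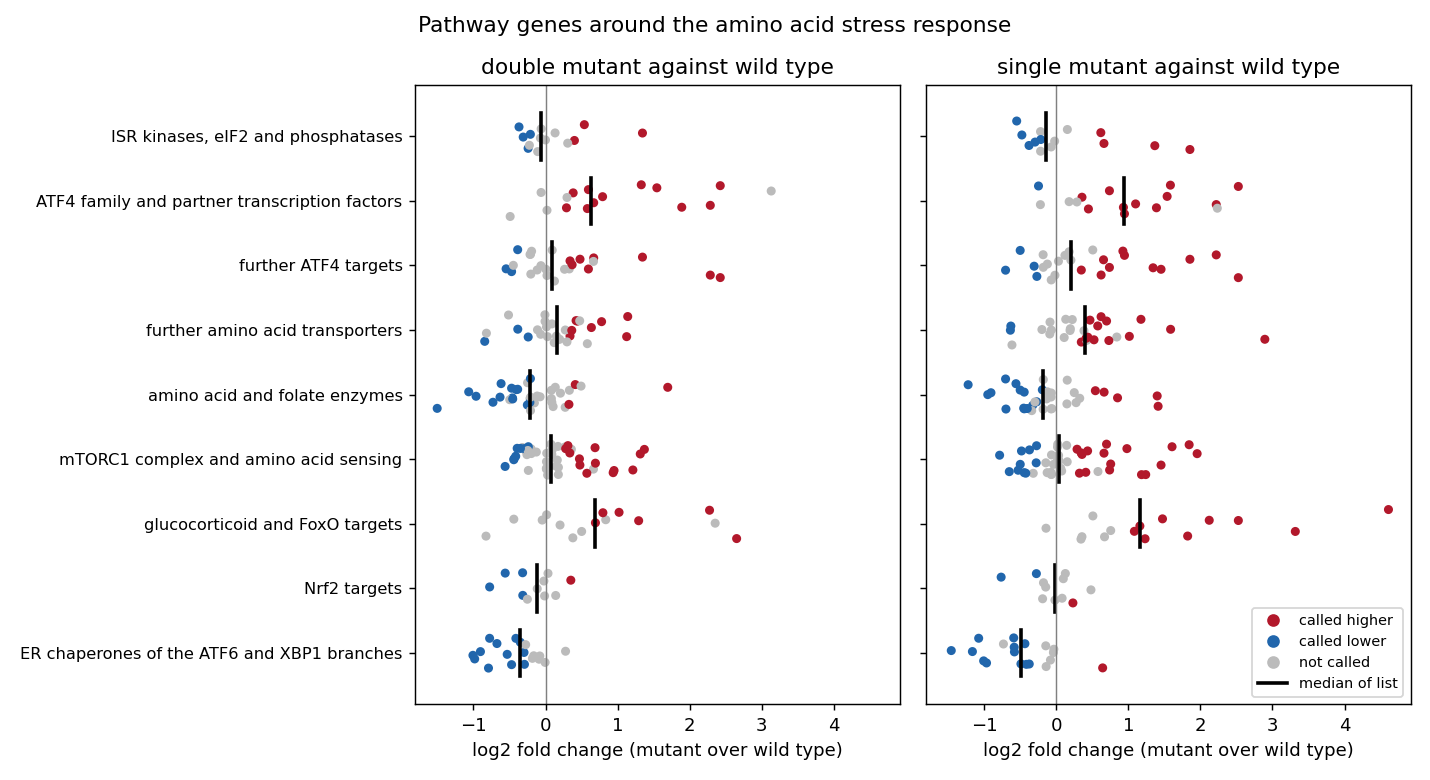
Log2 fold change of every tested gene in 9 lists around the members, in double mutants and in single mutants against wild type. Each point is a gene, red where called higher, blue where called lower and grey where not called, and black bars are list medians. The lists were chosen with earlier results of these data known. The transcription factor list lies mostly above 0, with 11 of 16 called higher in each mutant, and the ER chaperone list mostly below 0, with 12 of 19 called lower in each. Over all tested genes 14.2% were called higher and 18.0% lower in double mutants, and 19.5% and 22.6% in single mutants.

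Neighbouring stress pathways had other patterns. Of 19 ER chaperone genes of the ATF6 and XBP1 branches, none was called higher and 12 lower in double mutants, and 1 higher and 12 lower in single mutants, with medians of −0.35 and −0.49. The AMPylase ficd had −0.79 in double mutants (adjusted p = 0.000169) and −0.97 in single mutants (adjusted p = 2.26e-05), and the secreted survival factor manf had −0.67 (adjusted p = 0.00118) and −1.07 (adjusted p = 2.37e-05). The cochaperone dnajb11 had −0.41 (adjusted p = 0.00194) and −0.59 (adjusted p = 7.91e-05), calr (calreticulin) had −0.43 in single mutants (adjusted p = 9.98e-05), and sdf2l1 had −0.47 in double mutants (adjusted p = 0.00233). In all 19 alternatives calr was also called lower in double mutants (−0.34 to −0.25) and sdf2l1 in single mutants (−0.47 to −0.31). Of 11 Nrf2 targets, 1 was called higher and 4 lower in double mutants, and 1 higher and 2 lower in single mutants. The thioredoxin reductase txnrd3 had −0.56 (adjusted p = 1.53e-05) and −0.76 (adjusted p = 7.13e-07), gclc, which makes the glutathione precursor, had 0.35 (adjusted p = 0.00456) and 0.23 (adjusted p = 0.0343), and gstp1 had −0.32 (adjusted p = 0.00125) and −0.14 (adjusted p = 0.0748). The call of gclc in single mutants ended on leaving out single-mutant replicate 3 (adjusted p = 0.0708), wild-type replicate 2 (adjusted p = 0.0879) or wild-type replicate 3 (adjusted p = 0.11), with the 6 libraries compared (adjusted p = 0.0543) and with scaling by library totals (adjusted p = 0.0912). The peroxiredoxin gene prdx1 had −0.78 in double mutants (adjusted p = 3.58e-05) and −0.27 in single mutants (adjusted p = 0.0343), and the second was lost in 12 of 19 alternatives (adjusted p up to 0.153 for prdx1). With scaling by library totals none of the Nrf2 targets was called higher and 3 were lower in single mutants, and gstp1 was then one of the 3 (adjusted p = 0.0203).

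Several genes known to respond to glucocorticoids or FoxO factors were higher. In mammals these pathways also act on ddit4 and sestrins, and whether they did so in these larvae was not tested. Of 15 tested, 6 were called higher and none lower in double mutants, with a median of 0.69, and 9 higher and none lower in single mutants, with a median of 1.16. Without single-mutant replicate 1 these counts were 10 higher and 2 lower in double mutants and 14 higher and none lower in single mutants. The insulin receptor substrate irs2a averaged 67.3 CPM in double mutants, 107 CPM in single mutants and 10.8 CPM in wild type, a log2 fold change of 2.65 (adjusted p = 0.00229) and 3.32 (adjusted p = 0.000616). The binding protein igfbp1a had 2.27 (adjusted p = 0.00203) and 2.53 (adjusted p = 0.000897), and tsc22d3, encoding GILZ, had 0.80 (adjusted p = 0.0119) and 1.16 (adjusted p = 0.00138). The median log2 difference of this list from the wild-type mean was 0.60, 0.68 and 0.73 in the double-mutant libraries and 0.61, 1.23 and 1.48 in single-mutant replicates 1 to 3. Some other lists had this order and others did not. The further amino acid transporters had 0.15, 0.15 and 0.19 in double mutants and 0.14, 0.45 and 0.51 in single-mutant replicates 1 to 3. Over all tested genes single-mutant replicate 1 was also nearer to the double mutants than the other single mutants were. The list of 15 holds trim63a, which was picked above for its likeness to ddit4. For the members the library medians lay between −0.12 and 0.04 in double mutants and between −0.08 and −0.05 in single mutants.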

How the data were processed

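The deposited table holds raw counts and a length in bases for each gene name. The submitters' processing notes list the tools cutadapt, STAR, featureCounts and DESeq2 and the genome build GRCz11, without versions. The strand setting, annotation release and handling of multimapping reads were not given in the sources used. Libraries were prepared from total RNA after ribosomal depletion, per the labels' protocols. The count table had no row named fam177a1a or fam177a1b. Whether the row fam177a1 holds 1 or both genes is not recorded.

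Counts were filtered with edgeR 4.0.16 (filterByExpr by genotype), scaled with TMM and tested with the quasi-likelihood F test, robust, in R 4.3.3. A single model by genotype was fitted to all 9 libraries. P-values were adjusted by the Benjamini-Hochberg method over the 21694 tested genes of each comparison and calls were made below 0.05. The SE was derived from the test, as the absolute log2 fold change divided by the square root of the F statistic. Intervals are at 95%, from that SE and a t distribution. CPM rest on TMM-scaled totals and TPM on the deposited counts and lengths. The fits were also run on simulated counts with the same changes in both mutants. That simulation held no difference between the mutants and no single-mutant library set apart, so it cannot speak to either. Alternatives used DESeq2 1.42.0, limma 3.58.1 (voom), other scalings and filters, the 6 libraries compared, a replicate block and each library left out. The last alternative, added after the data were seen, kept single-mutant replicate 1 as the only single mutant.

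The members and all lists were chosen with earlier results of these data known. Named genes are the members, the targeted row and up to 4 genes with the smallest adjusted p per list and comparison. Also named are the 5 nearest to ddit4, the member with the widest range, among rows with a conventional gene symbol. Others are marked where they appear. Some genes stand in more than 1 list. The listed symbols eif2ak4, slc7a1b, gcsh, gpt, sesn4, fnip2, kics2, ddit4l, fgf21, gdf15, cars1 and sel1l3 had no row under these names in the count table. A search of promoters for ATF4 motifs was not run, and no sequences were used here.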

Additional observations from a re-analysis of the deposited data

Results flagged for a closer look

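Of the genes in the lists around the members, 8 differed between double and single mutants, and none of the 9 tested members did. The test was edgeR's quasi-likelihood test of the difference itself. Over all tested genes 1.67% were called in this comparison, 145 higher and 217 lower. Some genes stand in more than 1 list and the number of distinct listed genes is not given here. Whether the 8 exceed the share over all tested genes was therefore not tested. The differences of these 8 genes are log2 fold changes, double over single. Higher in double mutants were slc3a1 at 0.65 (adjusted p = 0.00977) and rheb, the GTPase that activates mTORC1, at 0.86 (adjusted p = 0.0184). Lower in double mutants were nupr1a at −0.60 (adjusted p = 0.00793), mthfd1a at −0.81 (adjusted p = 0.00738), the proline synthesis gene pycr1a at −0.66 (adjusted p = 0.0435), the autophagy receptor gene sqstm1 at −0.92 (adjusted p = 0.0238), the stanniocalcin gene stc2b at −0.95 (adjusted p = 0.0338) and the peroxiredoxin gene prdx1 at −0.50 (adjusted p = 0.0176). Of 19 alternatives, the call was lost in 12 for pycr1a, 10 for stc2b, 8 for sqstm1, 6 for prdx1, 5 for rheb and 3 for slc3a1, and that of nupr1a was lost without double-mutant replicate 2 (adjusted p = 0.0613). Against wild type, rheb was lower in single mutants (−0.91 to −0.67 over the 19 alternatives, called in all). In double mutants it was called in none (−0.02 to 0.18). In single mutants sqstm1 was higher (0.39 to 1.15, called in 18), and in double mutants it was called in none (−0.06 to 0.09). For stc2b the ranges were 0.12 to 0.68 in single mutants (called in 7) and −0.54 to −0.31 in double mutants (called in none).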

How the results depend on the processing

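Over 19 alternatives for each of 27 member comparisons, 478 of 513 values kept their side of the threshold, 17 lost the call and 18 gained it. Of the 478, 27 changed sign while not called, among them asns, slc7a11 and, between the mutants, ddit4, trib3 and phgdh. No called member value changed sign. With scaling by library totals 3 members were lower in single mutants, and all genes called lower there numbered 5485, against 4894 with TMM. Members higher in double mutants numbered 1 with DESeq2, 1 with limma-voom and 3 with the 6 libraries compared. All genes called higher in these settings numbered 3199, 3117 and 4055, against 3084 in the main fit. Between the mutants, genes called higher and lower (145 and 217) became 321 and 562 with DESeq2, and 73 and 111 with the 6 libraries. An alternative chosen after seeing the data kept single-mutant replicate 1 as the only single mutant, assumed to vary like the other groups: 2653 genes and 0 members were lower in single mutants, 3 members were higher in double mutants, and 58 and 119 genes differed between the mutants. There trib1, double over single, was 0.43 (adjusted p = 0.0409), against −0.13 with all libraries.

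With each library left out in turn, genes called in single mutants ranged from 3497 to 4949 higher and 3552 to 5414 lower, with 1 to 3 members higher and 0 to 2 lower. In double mutants they ranged from 2432 to 3861 higher and 2693 to 4836 lower, with 0 to 3 members higher and 1 to 3 lower. Between the mutants they ranged from 41 to 1796 higher and 67 to 2064 lower, with 0 members higher and 0 to 1 lower. The highest of these came without single-mutant replicate 1 and the lowest without double-mutant replicate 2. The cause of these shifts was not tested.

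Each library's deviations from its genotype mean were correlated across genes between libraries of different genotypes. The 9 same-numbered pairs gave −0.036 to 0.053, none over 0.1, and the 18 other pairs gave −0.064 to 0.061. No gene-wide shift shared by number was seen, which cannot settle whether the numbers pair the libraries. With the replicate block, 2 members were higher and 1 lower in single mutants (trib3 lost, adjusted p = 0.0741), and 0 higher and 2 lower in double mutants. The scaling used moved the median of all genes by at most −0.05 log2 units. For chac1, 0 counts allow up to 0.178 CPM in the shallowest library, for counting error only.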
